A study of Mus musculus with 6 samples.

Results

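A set of 10 genes that help build the triglyceride-rich particle of the gut were followed over every array of the study. They are 5 apolipoprotein genes (Apoa1, Apoa4, Apob, Apoc2, Apoc3), the lipid transfer protein gene Mttp, the triglyceride synthases Dgat1 and Dgat2, the fatty acid binding protein gene Fabp2 and the fatty acid transport protein gene Slc27a4. The genes were taken by name, with all probe sets that the platform annotation maps to them, and the rule itself uses no signal. The 10 genes were, however, chosen with earlier results of these data known. They have 16 probe sets out of 22626 on the array, and stand for 10 of the 12393 genes with a probe set of their own. All 16 passed the filter on low signal, and their signals ran from 489.3 to 7534.4 on the linear MAS5 scale, where the filter lay at 37.1.

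RNA from the ileum, the distal small intestine, was hybridised to 6 single-colour Affymetrix arrays, 2 per group. All mice were wild-type males of mixed strain (C57BL/6:129Sv), 8 to 10 months old. BDL_GW4064 mice had the common bile duct ligated and received 100 mg/kg/day of GW4064, which activates the bile acid receptor FXR. BDL_Vehicle mice had the ligation and vehicle (1% Tween80 and 1% methylcellulose), and Sham_Vehicle mice had the duct mobilised but not tied and received the same vehicle. Gavage was daily in all groups, 2 days ahead of surgery and 5 days afterwards, and chow was freely available. The labels do not say that the arrays of a group hold separate animals, so p-values here reflect the spread between arrays and that spread may be technical. A group of sham mice given GW4064 was not analysed here.

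Enterocytes take up fatty acids and monoacylglycerol from bile salt micelles, rebuild them into triglyceride in the endoplasmic reticulum, and load that triglyceride onto apolipoprotein B to make chylomicrons, which leave through the lymph. Bile acids are needed for the micelles, and a ligated bile duct withholds them from the gut. The same apolipoproteins and Mttp also serve very low density lipoprotein assembly in the liver, where FXR is known to affect the expression of several of them.

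The labelled tissue and treatment were checked first. Of 13 enterocyte markers 11 had a probe set, all 11 passed the filter, and their summed signal was 42740.0 and 38080.0 in BDL_GW4064, 39250.0 and 42430.0 in BDL_Vehicle and 42430.0 and 42590.0 in Sham_Vehicle. Of 11 hepatocyte markers 9 had a probe set, and Alb, Fga, Fgb, Fgg, Ahsg and Tat lay under 37.1 in all 6 arrays. The other hepatocyte markers that passed the filter were Cps1, a urea cycle gene that the gut epithelium also expresses, at 1938 to 2449, and Ttr, at 53.7 to 81.2. Fgf15, the ileal hormone gene that FXR induces, had signals of 972 and 809.6 in BDL_GW4064, 5.5 and 3.4 in BDL_Vehicle and 316 and 479.6 in Sham_Vehicle. Smooth muscle markers differed between the arrays of 1 group, with a summed signal of 1985 and 12860.0 in BDL_GW4064, 1632 and 2018 in BDL_Vehicle and 1976 and 2171 in Sham_Vehicle. Fibroblast markers were high in both BDL_GW4064 arrays, with a summed signal of 3819 and 4478 in BDL_GW4064, 1430.0 and 1998 in BDL_Vehicle and 1731 and 2475 in Sham_Vehicle. All 9 fibroblast markers had higher values in BDL_GW4064 than in BDL_Vehicle (median log2 fold change 1.43), 9 at an unadjusted p under 0.05 and 0 past the limma threshold (smallest adjusted p = 0.208). Endothelial markers summed to 502 and 488 in BDL_GW4064, 269.6 and 289 in BDL_Vehicle and 272 and 351 in Sham_Vehicle, and macrophage markers to 2890.0 and 2605 in BDL_GW4064, 2406 and 1798 in BDL_Vehicle and 1504 and 1697 in Sham_Vehicle. An 18S rRNA control (the 5' probe set) split the arrays in a way that divided the BDL_Vehicle group alone. Its signal was at most 13.3 in 3 arrays, those of BDL_GW4064 and the second of BDL_Vehicle, and at least 67.3 in the other 3. For BDL_GW4064 against Sham_Vehicle the split and the groups therefore coincide. The split rests on 1 probe set, whose signal in the 3 low arrays lay under 37.1.

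Apoa1, Apoc3 and Apoa4 lie next to each other on mouse chromosome 9, Apob lies on chromosome 12 and Apoc2 on chromosome 7. Promoter sequence is shown for 4 of the apolipoprotein genes, because they bring together neighbours (Apoa1 and Apoa4) and the 2 genes whose group means spread in opposite directions (Apob and Apoc2). Neither Apob nor Apoc2 had a limma adjusted p under 0.05 in any comparison, and in both a sign turned when single arrays were left out. The sequences are the 250 bases before the RefSeq start site in build GRCm38.p6, 5′ to 3′ in the direction of the gene, with capitals for TATAAA or AGGTCA.
Apoa1 promoter (chr9:46228380-46228629, + strand): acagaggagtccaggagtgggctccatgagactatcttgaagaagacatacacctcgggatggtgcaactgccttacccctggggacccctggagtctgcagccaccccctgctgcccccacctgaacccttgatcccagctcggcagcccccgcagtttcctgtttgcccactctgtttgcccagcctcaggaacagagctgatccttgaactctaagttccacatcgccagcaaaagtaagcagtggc
Apoa4 promoter (chr9:46240594-46240843, + strand): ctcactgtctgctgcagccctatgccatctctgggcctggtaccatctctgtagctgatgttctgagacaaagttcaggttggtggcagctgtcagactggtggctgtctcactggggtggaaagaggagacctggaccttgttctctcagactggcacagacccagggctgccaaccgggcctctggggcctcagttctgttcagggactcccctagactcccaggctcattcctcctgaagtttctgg
Apob promoter (chr12:7977427-7977676, + strand): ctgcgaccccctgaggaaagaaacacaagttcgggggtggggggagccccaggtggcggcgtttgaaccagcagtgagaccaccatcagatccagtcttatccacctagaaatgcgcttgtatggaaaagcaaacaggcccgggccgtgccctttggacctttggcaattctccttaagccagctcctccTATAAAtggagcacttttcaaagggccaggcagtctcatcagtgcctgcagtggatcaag
Apoc2 promoter (chr7:19677942-19678191, - strand): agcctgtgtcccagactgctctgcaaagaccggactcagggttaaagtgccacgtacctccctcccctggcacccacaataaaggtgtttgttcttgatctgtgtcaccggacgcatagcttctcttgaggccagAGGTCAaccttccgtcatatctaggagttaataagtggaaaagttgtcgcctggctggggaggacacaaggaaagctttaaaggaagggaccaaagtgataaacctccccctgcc
The following motifs were searched on both strands in such windows of 7 of the 10 genes. The inverted repeat AGGTCANTGACCT, the type bound by FXR, was in 0 of the 7 windows and in 0.00609% of all 32851 promoter windows of the table. The direct repeat AGGTCANAGGTCA was in 0 of 7 and in 0.0335% of all windows, and the HNF4 core CAAAGTCCA in 0 of 7 and in 0.384%. TATAAA stood at position -60 of Apob alone, against 12.4% of all windows. The single hexamer AGGTCA, which is part of both repeats and was added after the other searches, stood at position -115 of Apoc2 alone, against 14.0% of all windows. A match or its absence describes these letters in this window and nothing about any factor.

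Apoa1 encodes the main protein of high density lipoprotein and is carried out of the gut on chylomicrons. Its probe set 1455201_x_at had signals of 7534 and 6254 in BDL_GW4064, 6409 and 6591 in BDL_Vehicle and 7136 and 6405 in Sham_Vehicle. The highest and lowest signals were both those of BDL_GW4064 arrays, so the groups overlapped. The other 3 Apoa1 probe sets (1419232_a_at, 1419233_x_at and 1438840_x_at) had signals down to 6058, and in each of the 4 the highest signal was 1.13 to 1.2 times the lowest. Apoa1 and Fabp2 probe sets ranked between 1 and 12 among all probe sets of every array, and saturation at such signals was not tested. A large fall from such signals was measured for another gene: Fabp6, the ileal bile acid binding protein gene, had 6691 and 6412 in BDL_GW4064, 2620.5 and 3109.5 in BDL_Vehicle and 6480.3 and 6651 in Sham_Vehicle (log2 fold change of BDL_Vehicle over Sham_Vehicle -1.20 ± 0.11 SE, limma adjusted p = 0.0194). Whether changes as small as those of Apoa1 and Fabp2 would show at such signals was not tested.

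Apoa4 encodes an apolipoprotein of nascent chylomicrons whose secretion follows fat absorption. Its probe set 1436504_x_at had 5026 and 3928 in BDL_GW4064, 3083 and 4137 in BDL_Vehicle and 4264 and 4301 in Sham_Vehicle. Both BDL_Vehicle arrays lay under both Sham_Vehicle arrays on this probe set. The second probe set, 1417761_at, had 4552 and 3318 in BDL_GW4064, 2857 and 3646 in BDL_Vehicle and 3629 and 3818 in Sham_Vehicle, and there the groups overlapped. The log2 ratio of the 2 probe sets moved by 0.13 over the 6 arrays, and they had the same sign in 3 of 3 comparisons.

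Apob encodes the structural protein around which a chylomicron is built. It had 2970.0 and 1687 in BDL_GW4064, 2529 and 2505 in BDL_Vehicle and 3023 and 2879 in Sham_Vehicle. The BDL_Vehicle and Sham_Vehicle arrays lay close together within each group and did not overlap, while the BDL_GW4064 arrays differed from each other 1.76-fold, 1 above and 1 below both BDL_Vehicle arrays. The lower of these was BDL_GW4064 replicate 2, the array with the high smooth muscle signal, and the part of that tissue in the Apob value was not tested. Apoc3, an inhibitor of lipoprotein lipase and of remnant clearance, had 3047 and 1991 in BDL_GW4064, 2068 and 2587 in BDL_Vehicle and 2823 and 3274 in Sham_Vehicle. Its BDL_Vehicle arrays again lay below the Sham_Vehicle arrays, and its lowest signal was again that of BDL_GW4064 replicate 2. Apoc2, the activator of lipoprotein lipase, had 3219 and 2557 in BDL_GW4064, 1993 and 2722 in BDL_Vehicle and 1695 and 2422.5 in Sham_Vehicle. Its means were 2888 ± 468 in BDL_GW4064, 2358 ± 515 in BDL_Vehicle and 2059 ± 515 in Sham_Vehicle (SD, n = 2 arrays each), and the arrays of BDL_GW4064 and Sham_Vehicle did not overlap.

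**Figure D1:**
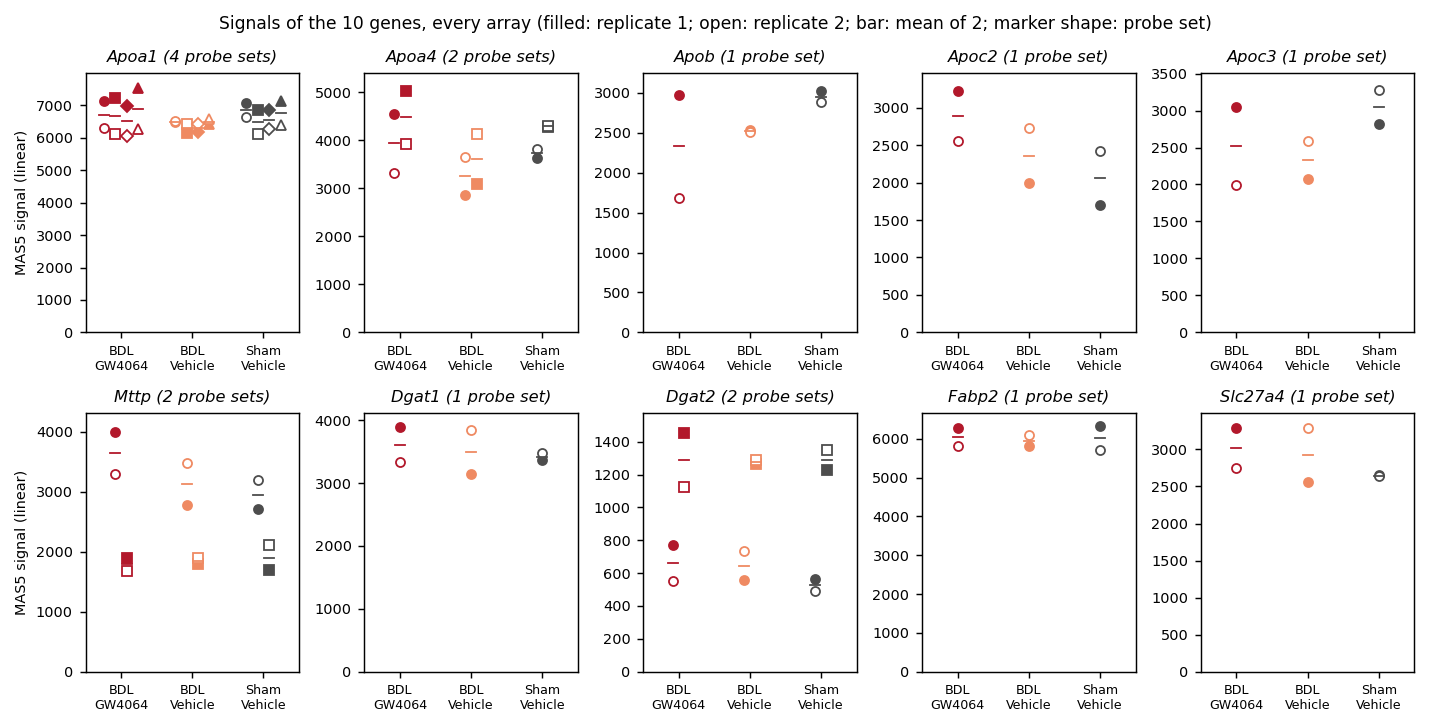
MAS5 signal (linear, from 0) of each probe set of the 10 genes in every array, by group from left to right BDL_GW4064, BDL_Vehicle and Sham_Vehicle, with filled markers for replicate 1, open markers for replicate 2, bars for the mean of 2 and marker shapes for probe sets. BDL_GW4064 replicate 1 was the highest array in 11 of the 16 probe sets, and BDL_GW4064 replicate 2 the lowest in 7.

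Mttp encodes the microsomal triglyceride transfer protein, which loads lipid onto apolipoprotein B. Probe set 1419399_at had 3998 and 3296 in BDL_GW4064, 2776 and 3480.4 in BDL_Vehicle and 2705 and 3199.5 in Sham_Vehicle. Probe set 1419400_at had 1897 and 1681 in BDL_GW4064, 1794.5 and 1890.1 in BDL_Vehicle and 1696 and 2105 in Sham_Vehicle. The 2 probe sets of Mttp had opposite signs in all 3 comparisons, and their log2 ratio moved by 0.47 over the arrays, so no direction is given for the gene.

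Dgat1 and Dgat2 encode the enzymes that add the last acyl chain of triglyceride. Dgat1 had 3888 and 3332 in BDL_GW4064, 3147 and 3851.5 in BDL_Vehicle and 3369 and 3476 in Sham_Vehicle, with the Sham_Vehicle arrays inside the range of both ligated groups. Dgat2 probe set 1422678_at had 1454 and 1124.5 in BDL_GW4064, 1262 and 1286 in BDL_Vehicle and 1228 and 1348 in Sham_Vehicle, and its other probe set, 1422677_at, 770.2 and 551 in BDL_GW4064, 555 and 732 in BDL_Vehicle and 566 and 489 in Sham_Vehicle. The log2 ratio of these probe sets moved by 0.65, the widest disagreement within any of the 4 genes with several probe sets. Fabp2, a cytosolic carrier of fatty acids, had 6271 and 5815 in BDL_GW4064, 5813 and 6091 in BDL_Vehicle and 6330.5 and 5719.9 in Sham_Vehicle, and its highest signal was 1.11 times its lowest. Slc27a4, an acyl-CoA synthetase that draws fatty acids into the enterocyte, had 3284 and 2750.0 in BDL_GW4064, 2560.3 and 3295 in BDL_Vehicle and 2655 and 2642 in Sham_Vehicle. Both BDL_GW4064 arrays of Slc27a4 lay above both Sham_Vehicle arrays, and the BDL_Vehicle arrays lay on either side of all of them.

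The first comparison asked how ligation changed these genes. With BDL_Vehicle set against Sham_Vehicle, 0 of the 16 probe sets passed the limma threshold (adjusted p under 0.05), where 0.0295% of all 13575 tested probe sets passed, and 0 had an unadjusted p under 0.05, against 6.37%. Adjusted p-values ran from 0.751 to 0.989. Apoc3 had the lowest log2 fold change, -0.39 ± 0.21 (SE), with a 95% interval of -0.87 to 0.086, and Dgat2 on 1422677_at the highest, 0.28 ± 0.21, with an interval of -0.20 to 0.75. Apoa4 had -0.26 (interval -0.64 to 0.12) on 1436504_x_at and Apob -0.23 (-0.76 to 0.30). Apoa1 lay between -0.077 and -0.043 on its 4 probe sets, and Fabp2 had -0.016 (-0.23 to 0.20).

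Without overlap between the arrays, 4 probe sets were lower after ligation, those of Apob, Apoc3 and 1 each of Apoa1 and Apoa4, against 18.7% of all tested probe sets, and 0 were higher, against 18.2%. The difference of means exceeded both replicate gaps for Apob and Apoc3 alone, 2 of 16, against 23% of all tested probe sets. By brightest probe set, 4 of the 10 genes had higher values, with a median log2 fold change of -0.015, beside 47.9% higher and a median of -0.012 over 7919 genes. Mttp is counted there by 1419399_at (0.079), while 1419400_at had -0.037. Adjusted for the split by the 18S rRNA control, which leaves BDL_Vehicle replicate 1 as the array set against Sham_Vehicle, 0 of the 10 genes had higher values and the median was -0.080.

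The second comparison asked how GW4064 changed these genes in ligated mice. With BDL_GW4064 set against BDL_Vehicle, 0 of 16 probe sets passed the limma threshold, where 0.0516% of all tested probe sets passed, and 0 had an unadjusted p under 0.05, against 7.48%. Adjusted p-values ran from 0.762 to 0.996. Apoa4 had the highest log2 fold change, 0.31 ± 0.16 (SE, 95% interval -0.068 to 0.70) on 1436504_x_at and 0.27 ± 0.17 on 1417761_at. Apoc2 had 0.30 ± 0.22 (-0.20 to 0.80), Mttp 0.22 on 1419399_at and -0.044 on 1419400_at, and Apob the lowest value, -0.17 ± 0.23 (-0.70 to 0.36). In all 16 probe sets the arrays of the 2 groups overlapped, against 17.4% of all tested probe sets higher and 18.1% lower without overlap, and in 0 did the difference of means exceed both replicate gaps, against 22.8%.

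By brightest probe set, 9 of the 10 genes had higher values with GW4064, and their median was 0.064, beside 50.4% higher and a median of 0.0022 over 7919 genes. This count depended on the scaling and on single arrays. It was 5 of 10 with each array centred on its median and 7 of 10 with quantile normalisation. It was 4 of 10 without BDL_Vehicle replicate 1, 3 of 10 without BDL_GW4064 replicate 1 and 10 of 10 without BDL_GW4064 replicate 2. Adjusted for the 18S rRNA split it was also 4 of 10, which is the same result as without BDL_Vehicle replicate 1. That split leaves BDL_Vehicle replicate 2 as the array set against BDL_GW4064. Relative to the mean of 6 arrays, the median log2 signal of the 10 genes was 0.21 in BDL_GW4064 replicate 1 and -0.063 in replicate 2, against -0.15 and 0.020 in BDL_Vehicle. The 11 enterocyte markers had 0.065 and -0.095 in BDL_GW4064 against -0.061 and 0.021 in BDL_Vehicle, so their array medians had the same 4 signs. Between the group means, however, 4 of these 11 markers had higher and 7 lower values with GW4064, with a median log2 fold change of -0.033. The part of epithelial content in the values of the 10 genes was not tested, and in bulk tissue fewer enterocytes and less RNA per enterocyte cannot be told apart.

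**Figure D2:**
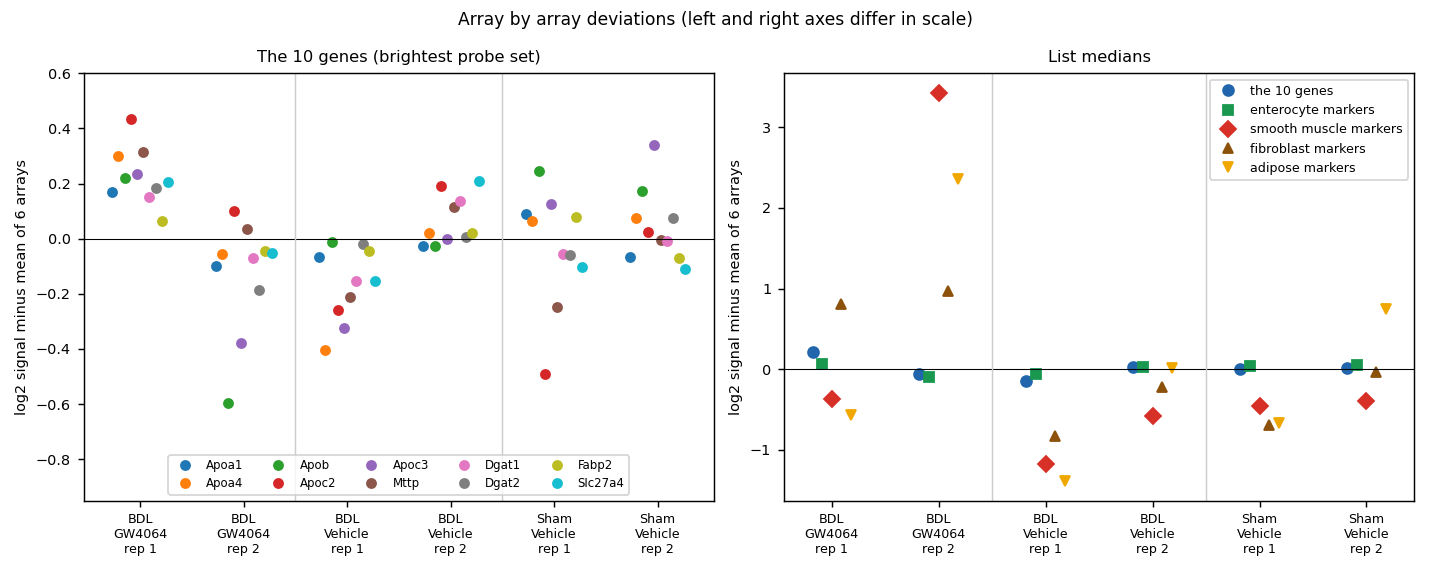
Log2 signal minus the mean of the 6 arrays, for each of the 10 genes (left, brightest probe set) and as medians of the 10 genes and of 4 marker lists (right, wider scale), with arrays ordered BDL_GW4064, BDL_Vehicle and Sham_Vehicle. The 10 genes stood at a median of 0.21 in BDL_GW4064 replicate 1 and -0.063 in replicate 2, where smooth muscle markers stood at 3.43 and adipose markers at 2.35.

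The third comparison set ligated mice with GW4064 against sham mice with vehicle, which differ in both surgery and drug. Each pair of the 3 comparisons shares a group, so none is an independent check of another. Here 0 of 16 probe sets passed, where 0.0368% of all tested probe sets did, and 1 had an unadjusted p under 0.05, against 16% of all tested probe sets. That was Apoc2, with a log2 fold change of 0.50 ± 0.22 (SE), a 95% interval of 0.0016 to 1.00 and a limma adjusted p of 0.312. Apoc2, Slc27a4 and Mttp on 1419399_at were higher without overlap, 3 of 16, against 23.8% of all tested probe sets, and 0 were lower, against 26.3%. The difference of means exceeded both replicate gaps for Mttp on 1419399_at alone, 1 of 16, against 36.7%. For Mttp the second probe set had -0.081 (-0.40 to 0.23) and the first 0.30 (-0.054 to 0.66). Apob had -0.40 ± 0.23 (-0.93 to 0.13) and Apoc3 -0.30 ± 0.21 (-0.78 to 0.18). By brightest probe set 7 of the 10 genes had higher values, beside 51.8% of 7919 genes, and the median was 0.037. Mttp is counted there by 1419399_at, and Apoa1 by 1455201_x_at (0.022), while Apoa1 had -0.031 on 1419232_a_at. Adjusted for the 18S rRNA split the count was 1 and the median -0.12. Both Sham_Vehicle arrays lay on 1 side of that split and both BDL_GW4064 arrays on the other. The adjustment therefore rests on the gap between the 2 BDL_Vehicle arrays alone, and it cannot separate the split from the groups compared. The count was 3 without BDL_GW4064 replicate 1 and 10 without BDL_GW4064 replicate 2.

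The unadjusted 95% intervals of the 16 probe sets reached from 0.546-fold to 1.69-fold for BDL_Vehicle over Sham_Vehicle, from 0.616-fold to 1.74-fold for BDL_GW4064 over BDL_Vehicle and from 0.526-fold to 2.0-fold for BDL_GW4064 over Sham_Vehicle. Apoa1 and Fabp2 had the narrowest, with standard errors from 0.094 on the log2 scale, and Apob the widest, with 0.23. These intervals cover the spread between arrays alone and are not limits of detection.

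**Figure D3:**
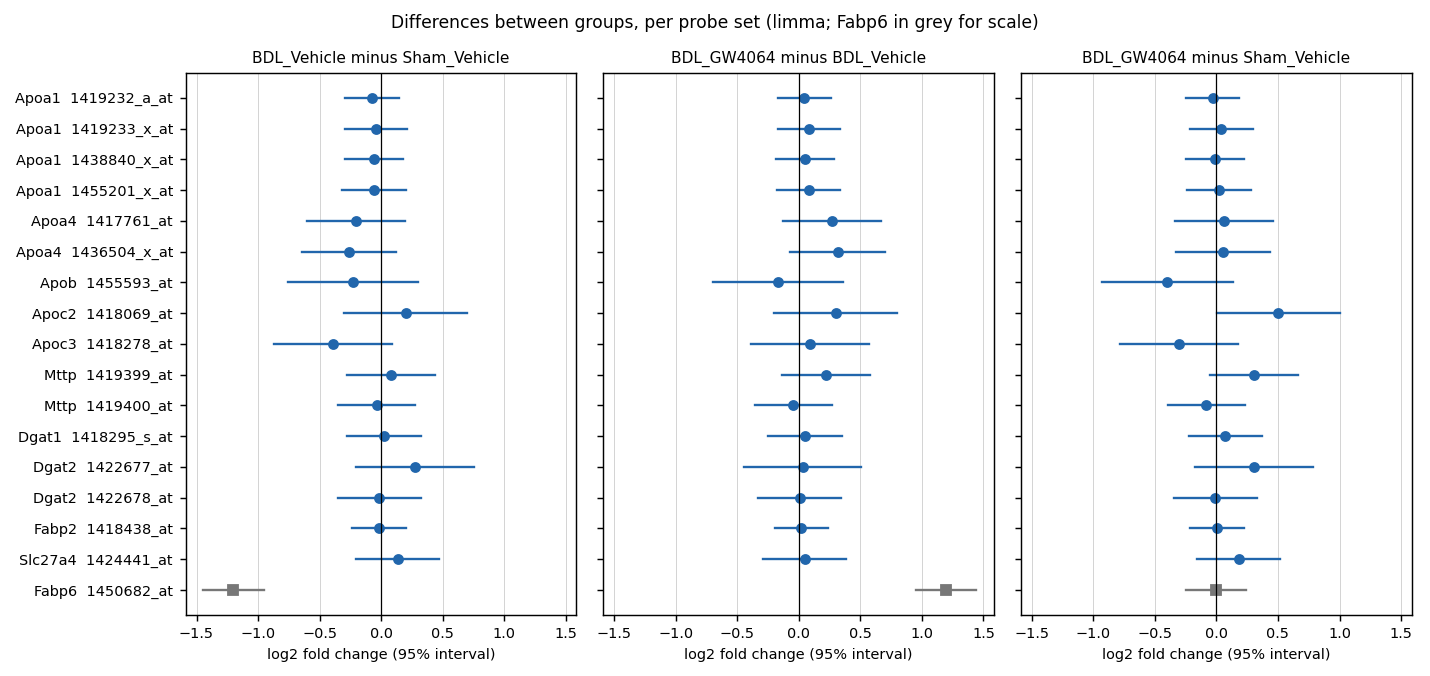
Log2 fold change with its 95% interval (limma) for the 16 probe sets of the 10 genes in the 3 comparisons, with Fabp6 in grey for scale. The intervals of all 16 include 0 in the first 2 panels, Apoc2 alone lies just above 0 in the third (0.0016 to 1.00), and Fabp6 stands at -1.20 and 1.20 in the first 2.

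Other genes of lipid handling were described from 6 lists, of which 61 of 94 genes had a probe set of their own above the filter. In each comparison 0 of these 61 passed the limma threshold. At an unadjusted p under 0.05 there were 8 of 61 for BDL_Vehicle over Sham_Vehicle, against 6.37% of all tested probe sets, 9 for BDL_GW4064 over BDL_Vehicle, against 7.48%, and 17 for BDL_GW4064 over Sham_Vehicle, against 16%, and the smallest adjusted p was 0.163. The counts are of genes by brightest probe set and the shares are of all tested probe sets, so they are unlike measures and no excess is read from them. These lists were drawn up with earlier results of these data known. Genes named from them were taken from those with the smallest p, a choice that favours groups without overlap, so a lack of overlap below is a description. Between BDL_Vehicle and Sham_Vehicle, 18.2% of all tested probe sets were higher and 18.7% lower without overlap. The share with all 3 groups separate was not computed.

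Of 11 other apolipoprotein genes 7 lay under 37.1 in all arrays, among them Apoa2, Apoa5, Apoc1 and Apoc4, and 3 could be tested. Clu, the gene of apolipoprotein J, had 336 and 341 in BDL_GW4064, 241 and 209.7 in BDL_Vehicle and 292 and 286 in Sham_Vehicle, so the BDL_Vehicle arrays were below all others (log2 fold change of BDL_GW4064 over BDL_Vehicle 0.58 ± 0.15 SE, limma adjusted p = 0.352). Apoe, the remnant receptor ligand that macrophages also make, had 306 and 424 in BDL_GW4064, 265 and 175 in BDL_Vehicle and 269 and 236 in Sham_Vehicle, and its highest array was BDL_GW4064 replicate 2. The fibroblast, endothelial and macrophage marker sums were also highest in the BDL_GW4064 arrays, and their part in the Apoe values was not tested. Apoh had 120.3 and 33.3 in BDL_GW4064, 36.1 and 25.0 in BDL_Vehicle and 52.7 and 53.0 in Sham_Vehicle.

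Among 17 testable genes of chylomicron assembly partners and trafficking, medians were -0.0061 for ligation and -0.0063 for GW4064. Sec23a, a coat protein of the vesicles that leave the endoplasmic reticulum, had 813 and 776 in BDL_GW4064, 948 and 953 in BDL_Vehicle and 1006 and 1136 in Sham_Vehicle. The 3 groups of Sec23a did not overlap, with a log2 fold change of -0.43 ± 0.12 (SE) for BDL_GW4064 over Sham_Vehicle and a limma adjusted p of 0.203. The vesicle fusion gene Vamp7 had -0.37 ± 0.14 in that comparison (limma adjusted p = 0.279). Apobec1, the enzyme that edits Apob mRNA to its short intestinal form, had 410.0 and 284 in BDL_GW4064, 357 and 419.8 in BDL_Vehicle and 349 and 266 in Sham_Vehicle. Both BDL_Vehicle arrays of Apobec1 lay above both Sham_Vehicle arrays, with BDL_GW4064 overlapping both groups.

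Fatty acid uptake and triglyceride resynthesis gave 17 testable genes. Of these, 13 had higher and 4 lower values in BDL_GW4064 than in BDL_Vehicle, with a median log2 fold change of 0.11. Cd36, a fatty acid translocase, had 204 and 208 in BDL_GW4064, 122 and 159 in BDL_Vehicle and 248 and 349 in Sham_Vehicle. The 3 groups of Cd36 did not overlap, and its log2 fold change for BDL_Vehicle over Sham_Vehicle was -1.06 ± 0.21 (SE, limma adjusted p = 0.448). Plin2, a coat protein of lipid droplets, had 924 and 898 in BDL_GW4064, 639 and 807.5 in BDL_Vehicle and 632 and 745 in Sham_Vehicle. The phosphatidate phosphatase gene Lpin3 had 234 and 205 in BDL_GW4064, 157 and 263 in BDL_Vehicle and 134 and 127 in Sham_Vehicle. Agpat1 had 145 and 112.7 in BDL_GW4064, 197.8 and 187.2 in BDL_Vehicle and 211.7 and 149.7 in Sham_Vehicle. Its log2 fold change for BDL_GW4064 over BDL_Vehicle was -0.58 ± 0.22 (SE, limma adjusted p = 0.572). Mgll, a monoacylglycerol lipase, had 116 and 223 in BDL_GW4064, 73.4 and 83.8 in BDL_Vehicle and 61.6 and 83.9 in Sham_Vehicle, highest in the array with the high smooth muscle and adipose markers, whose part in it was not tested.

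Of 6 sterol genes the lowest log2 fold changes after ligation were those of the exporters Abca1 (-1.74 ± 0.26), Abcg8 (-0.99 ± 0.19) and Abcg5 (-0.71 ± 0.15, SE on the log2 scale), with limma adjusted p from 0.2 to 0.475. Of 5 genes of plasma lipolysis and remnant receptors, Lpl, the lipase that Apoc2 activates, had 76.7 and 160.2 in BDL_GW4064, 33.7 and 62.0 in BDL_Vehicle and 80.3 and 94.3 in Sham_Vehicle. Its highest array was thus BDL_GW4064 replicate 2, while replicate 1 lay below both Sham_Vehicle arrays. Adipose markers summed to 289.3 and 1575 in BDL_GW4064, 124.7 and 383.6 in BDL_Vehicle and 223.8 and 607.2 in Sham_Vehicle. The part of adipose, smooth muscle, fibroblast, endothelial and macrophage content in the Lpl values was not tested. Angptl4, an inhibitor of that lipase, had 401 and 385 in BDL_GW4064, 569 and 450.1 in BDL_Vehicle and 215.5 and 249 in Sham_Vehicle, with no overlap among the 3 groups (BDL_Vehicle over Sham_Vehicle 1.12 ± 0.17 SE, limma adjusted p = 0.2). Of 13 testable regulators, Gata6 had 345 and 320.2 in BDL_GW4064, 439 and 398 in BDL_Vehicle and 486 and 544 in Sham_Vehicle, and Nr5a2, a nuclear receptor of the gut epithelium, had 318 and 294 in BDL_GW4064, 331 and 302 in BDL_Vehicle and 408 and 424 in Sham_Vehicle. Ppargc1b, a coactivator of oxidative and lipid genes, had 459 and 349 in BDL_GW4064, 293.5 and 265 in BDL_Vehicle and 275 and 291 in Sham_Vehicle.

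**Figure D4:**
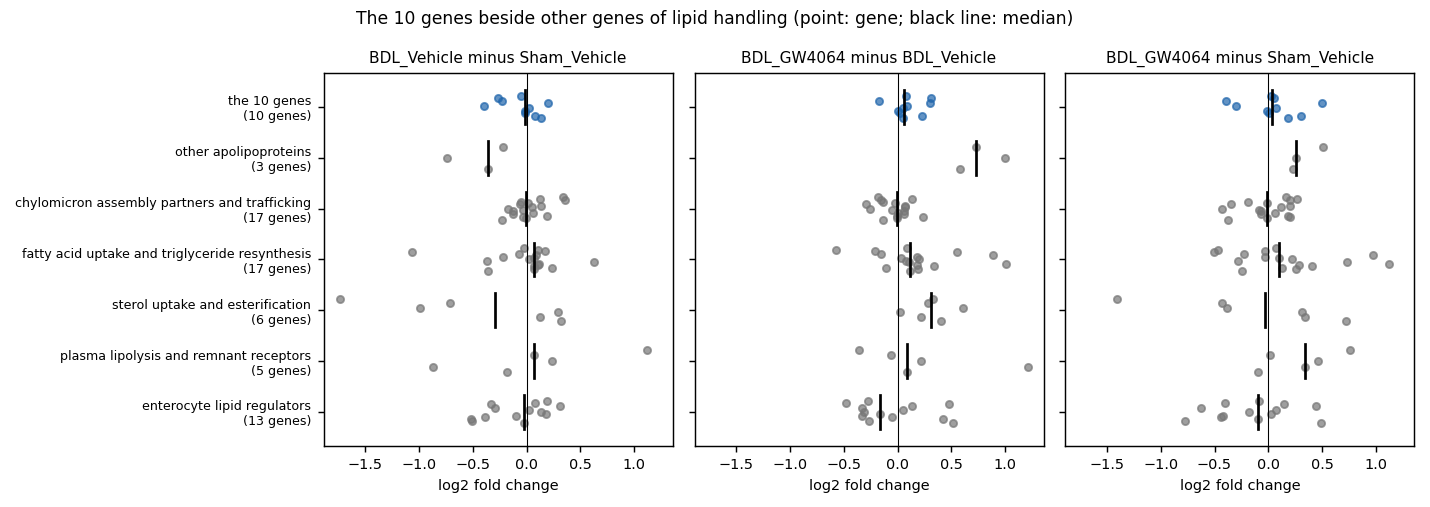
Log2 fold change of each gene (points, brightest probe set) and the median (black lines) for the 10 genes and 6 lists of lipid handling genes in the 3 comparisons. The 10 genes lie between -0.39 and 0.20 after ligation, and the chylomicron assembly partners between -0.23 and 0.36. Sterol genes reach -1.74 and plasma lipolysis genes 1.12, none of them past the limma threshold.

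Genes with the most similar pattern over the 6 arrays were looked up among 7909 others, by Pearson correlation of log2 signal, as a description. The 2 nearest genes of each of the 10 had correlations of 0.97 to 1.00. These are the highest of 7909 values over only 6 arrays, and shared regulation was not tested. Nearest to Apoc2 were Sh3bp1 (0.99) and Mogat2 (0.99), the monoacylglycerol acyltransferase gene that lies beside Dgat2. Nearest to Apoa4 were Acot13 and Rhot2 (0.99 and 0.98), and nearest to Apob were Camk1d and Mocos (0.99 and 0.98).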

How the data were processed

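The deposited intensity values are MAS5 signals on a linear scale, per the submitters' processing notes. No MAS5 settings or detection calls were used here. In each array the 2% trimmed mean was 200.1, which shows a common scaling by the authors. With 2 arrays per group, their number limits the precision.

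Control probe sets (64) were left out and log2(signal + 3.9) was computed from the deposited intensity, the pseudocount being the 10th percentile of all signals; such fold changes understate those of low signals. After dropping the lowest 40% of probe sets by mean, 13575 were tested with limma 3.58.1 (R 4.3.3), fitting all 6 arrays with a signal-dependent variance prior (3 residual and 4.71 prior degrees of freedom) and Benjamini-Hochberg adjustment over all of them. The fit was tested on simulated data. The platform annotation gave 20380 probe sets 1 gene, 691 several and 1555 none; 20351 were found by gene identifier in RefSeq (GRCm38.p6), the source of the promoters too.

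All probe sets of the 10 genes are reported; from each lipid list up to 4 genes per comparison, those with the smallest p, could be named. The members and lists were chosen with earlier results of these data known. Alternatives covered scaling, pseudocount, filter, variance prior, array weights, the probe set standing for a gene, the arrays fitted, the replicate number as a block, the split by 18S rRNA and leaving out each array.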

Additional observations from a re-analysis of the deposited data

How the results depend on the processing

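The number of the 16 probe sets that passed the threshold was 0 in each comparison under each of the alternatives run, and the smallest adjusted p over all of them was 0.102. With the replicate number as a block it was also 0 of 16. Deviations of same-numbered arrays correlated at -0.12, 0.094 and 0.037 between the pairs of groups, so the numbers were not taken to pair the arrays. With all arrays in, the median of the 10 genes moved by less than the spread between arrays (0.133, SD of array medians within groups), except that for BDL_GW4064 over Sham_Vehicle it was -0.12 adjusted for the 18S rRNA split. All values of that comparison under that setting carry over the gap between the 2 BDL_Vehicle arrays, the only group that the split divides. The replicate block could not move the medians (-0.015, 0.064 and 0.037), because each group holds 1 array of each number. Leaving out arrays gave medians from -0.059 to 0.23 for BDL_GW4064 over BDL_Vehicle (0.064 with all) and from -0.081 to 0.18 for BDL_GW4064 over Sham_Vehicle (0.037 with all), the highest of both without BDL_GW4064 replicate 2. Of 864 log2 fold changes of single probe sets under the alternatives, 91 had the other sign from the reported value. They fell in 38 of 48 pairs of probe set and comparison, the cause was not tested, and no value past the threshold was among them. The 864 include values that could not change, since the filter, the variance prior and the replicate block leave a log2 fold change as it was. For ligation and for drug, values adjusted for the 18S rRNA split also repeat those with a single BDL_Vehicle array left out. The 91 of 864 is therefore not a rate at which signs turn. Over all tested probe sets, calls for ligation, drug and both were 4, 7 and 5, against 2, 4 and 0 with the replicate block, 3, 2 and 0 adjusted for the 18S rRNA split, 1, 2 and 0 without the signal trend and 2, 4 and 6 with no filter; the drug count was 12 with a robust prior, the count for both 3 with median centring. Leaving out arrays gave 1 to 6, 2 to 48 and 0 to 29, the highest for drug and for both without BDL_GW4064 replicate 1. Adjusted for the 18S rRNA split, the sign turned for BDL_Vehicle over Sham_Vehicle in Apoc2 (-0.024), Dgat1 (-0.12), Mttp 1419399_at (-0.084) and Slc27a4 (-0.049). The sign turned for BDL_GW4064 over BDL_Vehicle in Apoc3 (-0.071), Dgat1 (-0.098), Dgat2 1422677_at (-0.17), Dgat2 1422678_at (-0.0083), Fabp2 (-0.012) and Slc27a4 (-0.13), under the same setting. The sign turned for BDL_GW4064 over Sham_Vehicle in Apoa1 1419233_x_at (-0.020), Apoa1 1455201_x_at (-0.018), Apoa4 1417761_at (-0.29), Apoa4 1436504_x_at (-0.37), Dgat1 (-0.22), Dgat2 1422677_at (-0.090), Fabp2 (-0.062), Mttp 1419399_at (-0.023) and Slc27a4 (-0.18), under the same setting. With each array centred on its median, the sign turned for BDL_Vehicle over Sham_Vehicle in Apoa1 1419233_x_at (0.0082), Dgat2 1422678_at (0.036), Fabp2 (0.035) and Mttp 1419400_at (0.014). The sign turned for BDL_GW4064 over BDL_Vehicle in Apoa1 1419232_a_at (-0.017), Apoa1 1438840_x_at (-0.016), Dgat1 (-0.015), Dgat2 1422677_at (-0.032), Dgat2 1422678_at (-0.057), Fabp2 (-0.041) and Slc27a4 (-0.013), under the same setting. The sign turned for BDL_GW4064 over Sham_Vehicle in Fabp2 (-0.0066), under the same setting. With quantile normalisation, the sign turned for BDL_Vehicle over Sham_Vehicle in Apoa1 1419232_a_at (0.011), Apoa1 1419233_x_at (0.0067), Apoa1 1438840_x_at (0.022) and Apoa1 1455201_x_at (0.0080). The sign turned for BDL_GW4064 over BDL_Vehicle in Apoa1 1419232_a_at (-0.023), Apoa1 1438840_x_at (-0.037), Apoa1 1455201_x_at (0.00) and Fabp2 (-0.021), under the same setting. The sign turned for BDL_GW4064 over Sham_Vehicle in Fabp2 (-0.022), under the same setting. When each array was left out in turn, values for BDL_Vehicle over Sham_Vehicle that crossed 0 ranged as follows: Apoa1 1419233_x_at -0.13 to 0.041, Apoa1 1438840_x_at -0.12 to 0.0096, Apoa1 1455201_x_at -0.13 to 0.021, Apoc2 -0.056 to 0.46, Dgat1 -0.12 to 0.17, Dgat2 1422678_at -0.081 to 0.052, Fabp2 -0.089 to 0.057, Mttp 1419399_at -0.084 to 0.24, Mttp 1419400_at -0.19 to 0.12 and Slc27a4 -0.049 to 0.31. When each array was left out in turn, values for BDL_GW4064 over BDL_Vehicle that crossed 0 ranged as follows: Apoa1 1419232_a_at -0.045 to 0.14, Apoa1 1419233_x_at -0.036 to 0.20, Apoa1 1438840_x_at -0.056 to 0.15, Apoa1 1455201_x_at -0.055 to 0.21, Apob -0.58 to 0.24, Apoc3 -0.22 to 0.40, Dgat1 -0.098 to 0.19, Dgat2 1422677_at -0.21 to 0.27, Dgat2 1422678_at -0.18 to 0.19, Fabp2 -0.033 to 0.076, Mttp 1419400_at -0.13 to 0.043 and Slc27a4 -0.13 to 0.23. When each array was left out in turn, values for BDL_GW4064 over Sham_Vehicle that crossed 0 ranged as follows: Apoa1 1419232_a_at -0.12 to 0.059, Apoa1 1419233_x_at -0.079 to 0.16, Apoa1 1438840_x_at -0.11 to 0.094, Apoa1 1455201_x_at -0.11 to 0.16, Apoa4 1417761_at -0.17 to 0.29, Apoa4 1436504_x_at -0.12 to 0.23, Apob -0.81 to 0.0097, Apoc3 -0.61 to 0.0034, Dgat1 -0.038 to 0.18, Dgat2 1422678_at -0.19 to 0.18, Fabp2 -0.068 to 0.078 and Mttp 1419400_at -0.24 to 0.075.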
